A study of Mus musculus with 18 samples.

Results

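A set of 7 CXC chemokine genes was followed across wild-type and Ubc9-deficient mouse dendritic cells before and after LPS. Of 19938 genes measured, the 7 were chosen by name: the neutrophil attractants Cxcl1, Cxcl2 and Cxcl3, the CXCR3 ligands Cxcl9, Cxcl10 and Cxcl11, and the CXCR6 ligand Cxcl16. All 7 were found, each with 1 probe set, and none was lost to a filter on low signal because no such filter was used. Bone marrow cells had been cultured for 10 days in RPMI with 10% serum, antibiotics and 20 ng/ml GM-CSF, and all groups, wild-type cells included, had received 100 nM 4-hydroxytamoxifen on day 6. Ubc9 is the E2 enzyme that attaches the small protein SUMO to other proteins. The cells were either wild type (WT) or knockout (KO) for Ubc9, and of each genotype 3 samples were left without LPS, 3 received 10 ng/ml LPS for 1 h and 3 received it for 6 h. This made 6 groups of 3 arrays, 18 in all. LPS, a component of the outer membrane of Gram-negative bacteria, is sensed by Toll-like receptor 4. The labels do not state the strain, the age of the mice or how the gene was removed.

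CXC chemokines are small secreted proteins that steer leukocytes through G protein-coupled receptors. Cxcl1, Cxcl2 and Cxcl3 act on CXCR2 and draw neutrophils; their genes are classic early targets of NF-kB, and their transcripts are short-lived. Cxcl9, Cxcl10 and Cxcl11 act on CXCR3 and draw activated T cells and NK cells; they are known as interferon-induced genes, Cxcl9 mainly by interferon gamma and Cxcl10 also directly by NF-kB and interferon regulatory factors. Cxcl16 is unusual in being made as a membrane-bound protein that proteases can shed, and its receptor CXCR6 is found on T-cell and NKT-cell subsets.

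RNA was measured on Affymetrix Mouse Gene ST 1.0 arrays, and each value is a log2 RMA signal, so that 1 unit is a 2-fold step. Gene values on the 18 arrays ran from 1.5 to 13.71. A signal can be compared between arrays for 1 gene but not between genes, since probes differ in brightness. The submitters call the 3 arrays of a group biological replicates, without saying which animals they came from; p-values measure the spread between these arrays. Of the dendritic cell genes, Itgax had group means of 10.68 to 11.17, Cd74 of 11.4 to 11.7 and Xcr1, a marker of cross-presenting dendritic cells, of 3.34 to 3.73. Since probes differ, the marker levels given here do not rank genes or cell types. Averaged over 11 macrophage markers, the signal was 8.76 to 9.42 in WT arrays and 9.12 to 10.28 in KO arrays, and the KO arrays numbered 3 were the highest in every KO group. Neutrophil genes gave list means of 5.46 to 5.88 in all groups, with Ly6g at 2.94 to 3.27, and T and NK cell genes 3.82 to 4.28. In such bulk samples, fewer cells of a type and less RNA per cell cannot be told apart.

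Both classes of chemokine lie in gene clusters. In RefSeq's order of genes, Cxcl3, Cxcl15, Cxcl1 and Cxcl2 follow one another on chromosome 5, and Cxcl9, Art3, Cxcl10 and Cxcl11 do so on the same chromosome, whereas Cxcl16 is on chromosome 11. RefSeq lists Cxcl11 of this assembly as a transcribed pseudogene. Promoter sequences (RefSeq, GRCm38.p6) were at hand for 5 of the 7 genes, and they are shown because the letters upstream of the start differ between the classes. For the neutrophil attractants, all on the plus strand, the 120 bases before the transcription start are chr5:90891125-90891244 for Cxcl1, chr5:90903779-90903898 for Cxcl2 and chr5:90785981-90786100 for Cxcl3. Capitals mark GGGAATTTCCC, a symmetric NF-kB motif and the longest run of bases that the 250 bases upstream of the 3 genes share.
Cxcl1: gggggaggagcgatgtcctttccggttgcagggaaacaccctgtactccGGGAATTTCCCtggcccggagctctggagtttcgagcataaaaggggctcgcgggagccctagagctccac
Cxcl2: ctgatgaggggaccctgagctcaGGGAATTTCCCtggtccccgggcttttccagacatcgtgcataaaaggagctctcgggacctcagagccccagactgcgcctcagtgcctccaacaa
Cxcl3: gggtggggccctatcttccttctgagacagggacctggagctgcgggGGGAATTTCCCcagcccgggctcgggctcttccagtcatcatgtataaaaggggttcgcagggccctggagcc
For the CXCR3 ligands, both on the minus strand, the 230 bases before the start are chr5:92328080-92328309 for Cxcl9 and chr5:92348890-92349119 for Cxcl10. Capitals mark, from 5′ to 3′, the interferon-response form GAAANNGAA and 2 stretches of the NF-kB form GGGANNTNC in both genes, and then the AP-1 form TGANTCA in Cxcl10.
Cxcl9: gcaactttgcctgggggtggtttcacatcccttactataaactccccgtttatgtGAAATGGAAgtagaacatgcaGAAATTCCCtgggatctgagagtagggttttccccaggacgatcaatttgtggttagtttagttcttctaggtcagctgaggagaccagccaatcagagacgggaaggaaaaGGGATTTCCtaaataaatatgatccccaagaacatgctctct
Cxcl10: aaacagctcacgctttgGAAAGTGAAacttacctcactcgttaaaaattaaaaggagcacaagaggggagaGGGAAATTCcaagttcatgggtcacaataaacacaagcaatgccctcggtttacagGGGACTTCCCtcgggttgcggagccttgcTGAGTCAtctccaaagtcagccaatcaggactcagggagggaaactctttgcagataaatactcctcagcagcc
GGGAATTTCCC began 71 bases before the start in Cxcl1, 97 in Cxcl2 and 73 in Cxcl3. It was found in 14 of 32851 mouse promoters of 300 bases, or 0.0426%, and in neither CXCR3 ligand. The run was taken from the 3 neutrophil attractants, so its presence in them was given in advance, and they are among the 14. The looser form GGGANNTNC, which overlaps it, was found in 15.1% of promoters and in all 5 members. GAAANNGAA was found in 8.56% of promoters and in 2 of the 5, beginning 175 bases before the start in Cxcl9 and 213 in Cxcl10. Another interferon-response form, TTCNNNGAA (GAS), was found in 8.3% of promoters and in 0 of the 5. TGANTCA occurred in 7.81% of promoters, Cxcl10 included, and also downstream of the start in Cxcl9, outside the bases shown. All motifs were searched on both strands, and a match describes letters, not binding.

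The neutrophil attractants responded within 1 h. Cxcl2 stood at 6.54, 7.20 and 7.06 on the WT arrays without LPS and at 11.31, 11.74 and 11.91 after 1 h. In KO cells it stood at 7.22, 8.91 and 8.14 without LPS and at 12.11, 12.25 and 12.24 after 1 h. In both genotypes every array with LPS lay far above every array without it, and at all 3 times every KO array was above every WT array, narrowly so without LPS. The rise was 4.72 ± 0.30 (SE) log2 units in WT cells, 26.4-fold, the smallest p among all 19938 genes (limma adjusted p = 5.5e-07), and 4.11 ± 0.30 in KO cells, 17.3-fold (limma adjusted p = 1.1e-06). Between 1 h and 6 h the WT mean moved from 11.65 ± 0.31 to 11.54 ± 0.29 (SD, n = 3) and the KO mean from 12.20 ± 0.08 to 12.26 ± 0.11. After 6 h the arrays read 11.21, 11.72 and 11.69 in WT cells and 12.22, 12.18 and 12.39 in KO cells. Neither step passed the test (log2 difference -0.11, 95% interval -0.75 to 0.52, and 0.06, interval -0.57 to 0.70).

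Cxcl1 was the neutrophil attractant called between genotypes at both times with LPS. Without LPS its signal was 6.30, 5.90 and 5.39 in WT cells and 6.28, 6.66 and 6.37 in KO cells, and the genotypes overlapped. After 1 h the WT arrays read 8.06, 8.93 and 9.04 and the KO arrays 10.03, 11.17 and 10.85. After 6 h they read 7.88, 8.50 and 8.43 against 10.10, 10.92 and 11.23. At both times with LPS every KO array was above every WT array. LPS raised Cxcl1 by 2.81 ± 0.34 log2 units at 1 h in WT cells, 7.02-fold (limma adjusted p = 4.9e-04), and by 4.25 ± 0.34 in KO cells, 19-fold (limma adjusted p = 2.1e-06). The 6 h signal stood 2.41 above the WT level without LPS (limma adjusted p = 2.6e-04) and 4.31 above the KO level (1.4e-07). KO cells exceeded WT cells by 2.01 ± 0.34 at 1 h, 4.02-fold (limma adjusted p = 0.0031), and by 2.48 ± 0.34 at 6 h, 5.58-fold (4.9e-05).

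Cxcl3 rose more slowly. In WT cells it read 5.06, 6.16 and 5.96 without LPS, 7.47, 9.24 and 9.03 after 1 h and 11.11, 12.04 and 11.93 after 6 h. In KO cells it read 6.44, 8.26 and 7.60, then 10.02, 10.96 and 10.61, then 11.75, 12.03 and 11.99. The KO arrays were the higher ones without LPS and at 1 h, with no overlap, but the 6 h ranges of the genotypes overlapped. In WT cells the gain over no LPS was 2.85 ± 0.47 at 1 h (limma adjusted p = 0.0099) and 5.97 ± 0.47 at 6 h, 62.5-fold (1.1e-06). In KO cells it was 3.10 ± 0.47 at 1 h (limma adjusted p = 0.0022) and 4.49 ± 0.47 at 6 h (2.6e-06). The step from 1 h to 6 h was 3.11 in WT cells (limma adjusted p = 7.9e-04) and 1.39 in KO cells (0.036).

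**Figure D1:**
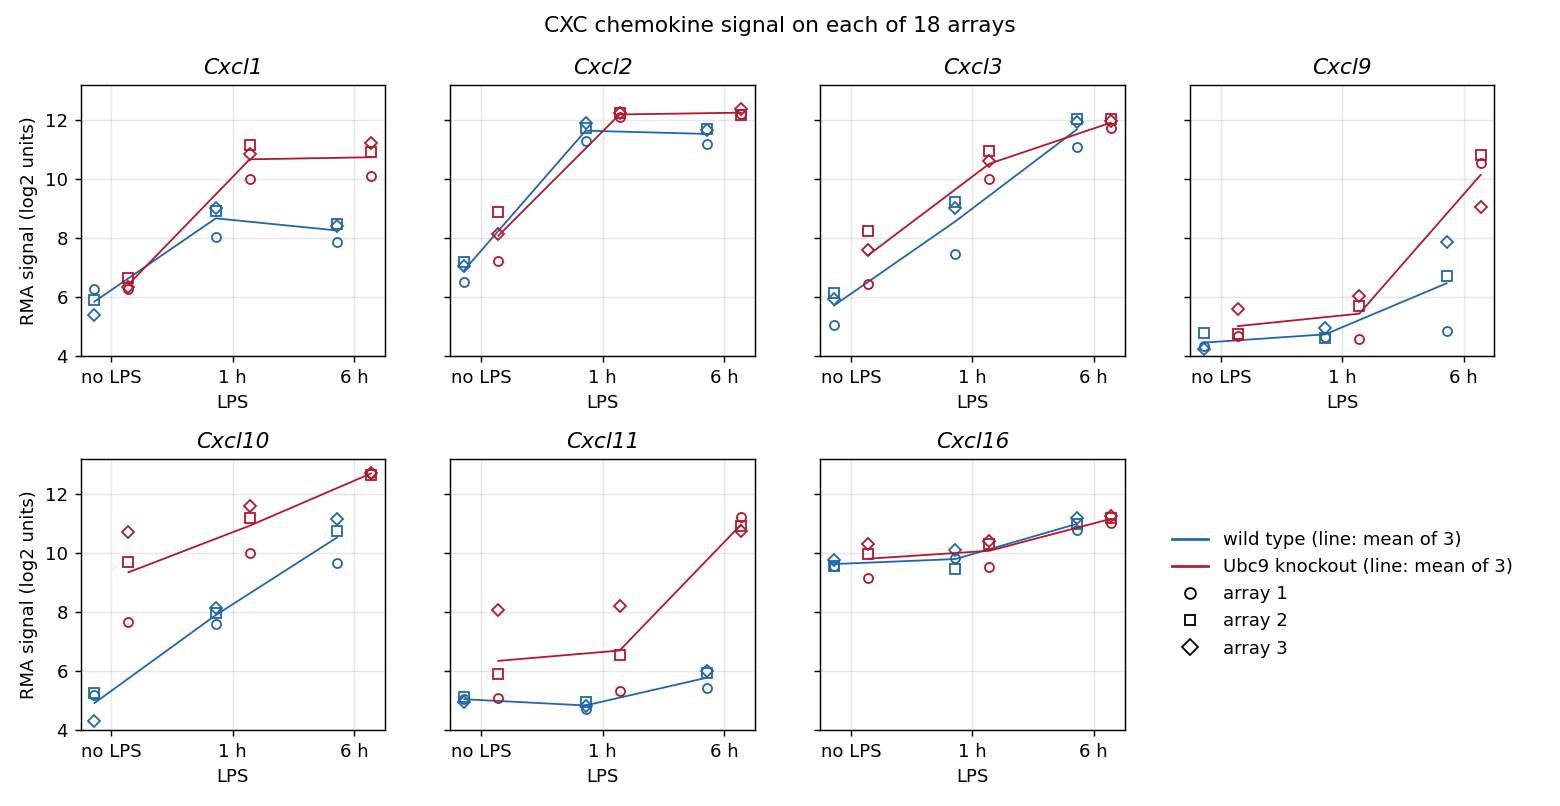
RMA signal (log2 units, y axis) of each of the 7 genes without LPS and after 1 h and 6 h of LPS (x axis), WT in blue and KO in red, each symbol 1 array and each line joining the means of 3. Cxcl1 with LPS, Cxcl10 at every time and Cxcl9 and Cxcl11 at 6 h show red points above all blue points, while for Cxcl16 the genotypes overlap at every time.

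Among the CXCR3 ligands, Cxcl10 was already high in KO cells that had seen no LPS. It read 5.18, 5.27 and 4.31 in WT cells and 7.67, 9.69 and 10.71 in KO cells without LPS, so that the lowest KO array lay above the highest WT array. After 1 h the WT arrays read 7.60, 7.98 and 8.14 and the KO arrays 10.00, 11.18 and 11.60. After 6 h they read 9.67, 10.76 and 11.15 against 12.72, 12.65 and 12.72, again without overlap. KO exceeded WT by 4.43 ± 0.58 without LPS, 21.6-fold (limma adjusted p = 3.3e-04), by 3.02 ± 0.58 at 1 h, 8.13-fold (0.0085), and by 2.17 ± 0.58 at 6 h, 4.5-fold (0.0099). The 3 KO arrays without LPS were far apart (SD 1.55), and the array numbered 3, also the highest for macrophage markers (10.20), was the highest of them; the part of those markers in the result was not tested. Without the 3 KO arrays numbered 3 the difference was 3.76 (limma adjusted p = 0.0014). In WT cells LPS raised Cxcl10 by 2.98 ± 0.58 at 1 h (limma adjusted p = 0.040) and by 5.61 ± 0.58 at 6 h, 48.7-fold (1.4e-05). In KO cells the 1 h gain of 1.57 ± 0.58 did not pass (95% interval 0.34 to 2.81, limma adjusted p = 0.40), and the 6 h gain was 3.34 ± 0.58, 10.2-fold (3.4e-04).

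Cxcl11 gave the largest genotype difference among the 7 genes. WT arrays read 5.07, 5.11 and 4.97 without LPS, 4.73, 4.94 and 4.83 after 1 h and 5.42, 5.93 and 6.00 after 6 h. KO arrays read 5.08, 5.92 and 8.06, then 5.34, 6.54 and 8.21, then 11.21, 10.92 and 10.74. The genotypes overlapped without LPS, and at 6 h each KO array was more than 4 units above each WT array. No LPS response was called in WT cells (6 h gain 0.73 ± 0.62, 95% interval -0.59 to 2.05, limma adjusted p = 0.65), although a fit of those 2 groups alone gave 0.031. In KO cells Cxcl11 rose by 4.61 ± 0.62 between no LPS and 6 h, 24.4-fold (limma adjusted p = 3.2e-05), nearly all of it after 1 h (0.34 at 1 h, adjusted p = 0.97). KO exceeded WT at 6 h by 5.18 ± 0.62, 36.2-fold (limma adjusted p = 1.4e-05), against 1.30 ± 0.62 without LPS (0.41) and 1.86 ± 0.62 at 1 h (0.18). The KO array numbered 3 was the highest without LPS and at 1 h, at 8.06 and 8.21, and the 6 h difference without the KO arrays numbered 3 was 5.29 (limma adjusted p = 6.0e-08).

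Cxcl9 was a late gene in both genotypes. It read 4.34, 4.81 and 4.26 in WT cells without LPS, 4.65, 4.63 and 4.96 after 1 h and 4.85, 6.73 and 7.87 after 6 h. The KO arrays read 4.70, 4.76 and 5.62, then 4.60, 5.72 and 6.04, then 10.54, 10.82 and 9.08. At 6 h 1 WT array stayed within the range of WT arrays at 1 h, whereas all 3 KO arrays at 6 h were above every other array. The WT gain at 6 h was 2.01 ± 0.59 (limma adjusted p = 0.046) and the KO gain 5.12 ± 0.59, 34.8-fold (6.8e-06). KO exceeded WT at 6 h by 3.67 ± 0.59, 12.7-fold (limma adjusted p = 2.0e-04); without LPS the difference was 0.56 (0.81) and at 1 h 0.71 (0.77).

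Cxcl16 rose late, and by similar estimates in both genotypes. Without LPS it read 9.58, 9.56 and 9.76 in WT cells and 9.17, 9.96 and 10.30 in KO cells, and after 1 h 9.85, 9.46 and 10.09 against 9.52, 10.30 and 10.42. After 6 h it read 10.80, 10.98 and 11.18 against 11.03, 11.20 and 11.26. The genotypes overlapped in each of the 3 conditions, and within each genotype the 6 h arrays were above all earlier arrays. The 6 h gain was 1.36 ± 0.26 in WT cells, 2.56-fold (limma adjusted p = 0.0028), and 1.35 ± 0.26 in KO cells, 2.55-fold (6.9e-04). At 1 h the changes of 0.17 and 0.27 did not pass (limma adjusted p = 1.0 and 0.91). KO minus WT was 0.18 without LPS (95% interval -0.37 to 0.72), 0.28 at 1 h (-0.26 to 0.82) and 0.17 at 6 h (-0.37 to 0.72), which leaves room for differences of up to 0.82 log2 units.

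The time courses separated the genes by the share of the 6 h response present at 1 h. In WT cells that share was 117% for Cxcl1 and 102% for Cxcl2, 47.8% for Cxcl3 and 53.2% for Cxcl10, and 13.8% for Cxcl9 and 12.3% for Cxcl16. In KO cells it was 98.4% for both Cxcl1 and Cxcl2, 69% for Cxcl3, 47.1% for Cxcl10, 20% for Cxcl16, 8.31% for Cxcl9 and 7.48% for Cxcl11. Cxcl1 and Cxcl2 were therefore at their 6 h level by 1 h, Cxcl3 and Cxcl10 were midway on the log2 scale, and for the other genes the share was at most 20%. Cxcl11 has no share in WT cells, where it was not called at 6 h. These shares compare values that hold the same arrays without LPS, and they carry no test of their own.

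**Figure D2:**
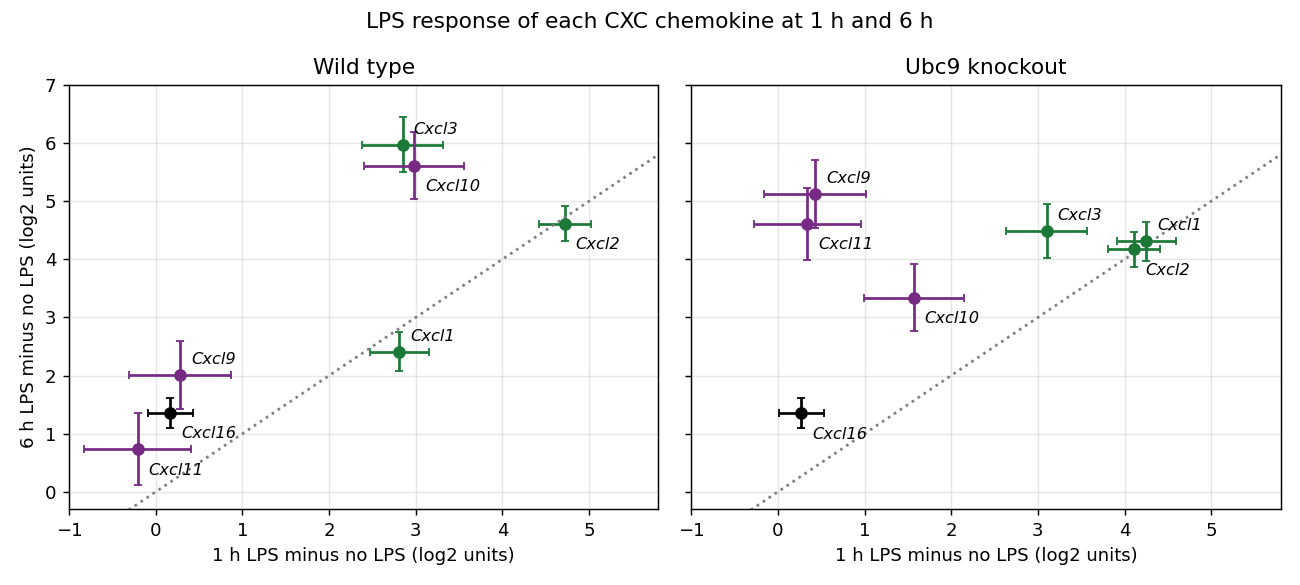
LPS response at 1 h (x axis) against that at 6 h (y axis), both in log2 units relative to no LPS, for WT (left) and KO (right); points are fitted differences of 3 against 3 arrays, bars are 1 SE, green marks the neutrophil attractants, purple the CXCR3 ligands and black Cxcl16, and the dotted line is equality. Cxcl1 and Cxcl2 lie near the line in both panels, and Cxcl9 (2.01 in WT, 5.12 in KO) and Cxcl11 (0.73 in WT, 4.61 in KO) lie far higher in the KO panel.

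The counts of members past the test can be read against all genes. After 1 h of LPS in WT cells 4 of the 7 genes rose (Cxcl1, Cxcl2, Cxcl3 and Cxcl10), where 0.256% of all genes rose, and in KO cells 3 rose (Cxcl1, Cxcl2 and Cxcl3), where 0.537% of all genes did. After 6 h 6 rose in WT cells, all except Cxcl11, against 4.23% of all genes, and all 7 rose in KO cells, against 12%. Between 1 h and 6 h 3 rose in WT cells (Cxcl3, Cxcl10 and Cxcl16; 3.04% of all genes) and 5 in KO cells, all but Cxcl1 and Cxcl2 (12.2%). Those latter steps were 2.62 for Cxcl10 (limma adjusted p = 0.012) and 1.19 for Cxcl16 (0.0098) in WT cells, and in KO cells 4.69 for Cxcl9 (2.1e-05), 4.26 for Cxcl11 (8.8e-05), 1.77 for Cxcl10 (0.031) and 1.08 for Cxcl16 (0.0047). No member fell in any LPS comparison. The median member response was 2.81 at 1 h and 2.41 at 6 h in WT cells and 1.57 and 4.31 in KO cells, while the median of all genes lay between -0.03 and 0.03 in these comparisons.

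Compared by genotype, 1 of the 7 genes was higher in KO cells without LPS (Cxcl10), where 1.8% of all genes were. At 1 h 3 were higher (Cxcl1, Cxcl3 and Cxcl10; 1.5% of all genes), and at 6 h 4 were higher (Cxcl1, Cxcl9, Cxcl10 and Cxcl11; 10.6% of all genes). No member was lower in KO cells at any time. The median member difference was 1.16 without LPS, 1.86 at 1 h and 2.17 at 6 h, against medians of all genes of 0.00, -0.03 and 0.04. Cxcl3 at 1 h was higher by 1.95 ± 0.47, 3.87-fold (limma adjusted p = 0.039), but at 6 h by 0.23 (95% interval -0.77 to 1.23, adjusted p = 0.74). Cxcl2 did not pass without LPS (1.16 ± 0.30, limma adjusted p = 0.055), at 1 h (0.54, 0.55) or at 6 h (0.72, 0.082), nor did Cxcl3 without LPS (1.71 ± 0.47, 0.075) or Cxcl1 without LPS (0.57, 0.55). With the replicate number as a random block within genotype, chosen after seeing the data, Cxcl2 and Cxcl3 did pass without LPS (limma adjusted p = 0.039 and 0.027), and Cxcl2 at 6 h passed in a fit of its 2 groups alone (0.011).

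Several of these calls sat close to the threshold of 0.05. Over 28 alternative settings the adjusted p of Cxcl3 at 1 h between genotypes ran from 5.1e-05 to 0.20. It was above 0.05 when any of 8 single arrays was left out: KO 1 h array 2 or 3 (0.16, 0.13), KO 6 h array 2 (0.054), WT array 3 without LPS (0.051), WT 1 h array 1 or 3 (0.20, 0.056) or WT 6 h array 2 or 3 (0.051, 0.052). Cxcl10 at 1 h between genotypes reached 0.057 without KO 1 h array 3 (range 5.4e-04 to 0.057), and at 6 h 0.056 without WT 6 h array 1 (9.9e-04 to 0.056). In the other direction, leaving out KO array 1 without LPS gave an adjusted p of 0.0012 for Cxcl2 without LPS (range 0.0012 to 0.36) and of 0.017 for Cxcl3 without LPS, for which WT 1 h array 1 did so too (0.033; range 1.6e-04 to 0.28). Cxcl2 at 6 h passed without KO array 1 or 2 of the group without LPS (0.018, 0.026; range 0.011 to 0.25), and Cxcl11 at 1 h without KO array 3 of that group (0.044) or KO 1 h array 1 (0.036; range 0.036 to 0.60).

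**Figure D3:**
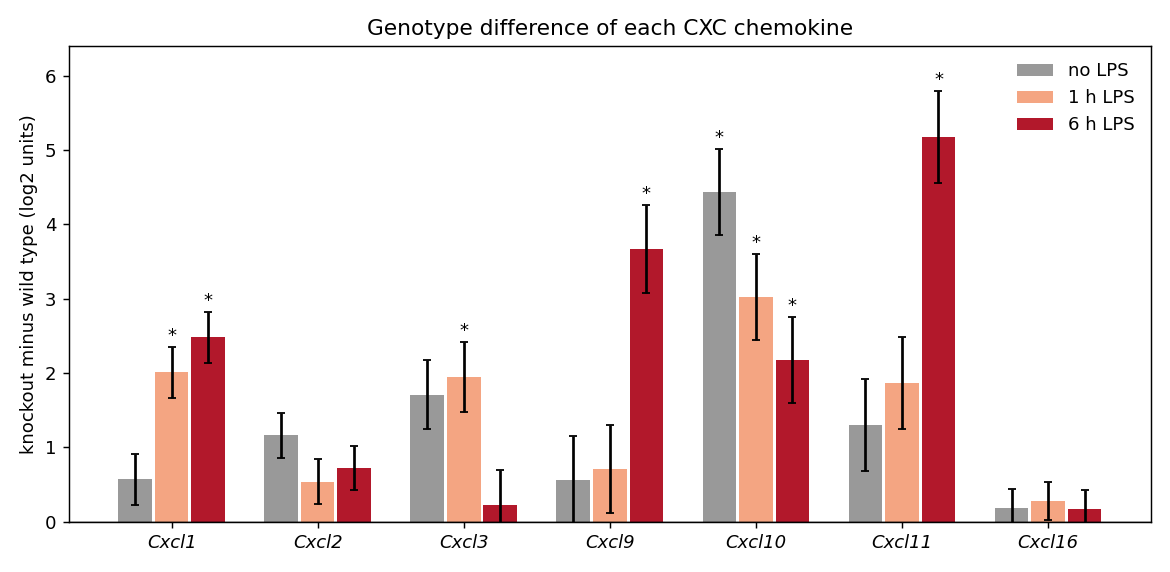
KO minus WT difference (y axis, log2 units) of each gene (x axis) without LPS (grey), at 1 h (orange) and at 6 h (red); bars are fitted differences of 3 against 3 arrays, whiskers 1 SE, and asterisks mark a limma adjusted p below 0.05. The difference of Cxcl10 is 4.43 without LPS and 2.17 at 6 h, that of Cxcl11 1.30 and 5.18, and that of Cxcl16 stays between 0.17 and 0.28.

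Whether LPS acted differently in the genotypes was tested as an interaction, the KO response minus the WT response. At 6 h 3 members passed in the direction of a larger KO response, as 3% of all genes did: Cxcl1 by 1.91 ± 0.48 (limma adjusted p = 0.019), Cxcl9 by 3.11 ± 0.84 (0.027) and Cxcl11 by 3.88 ± 0.88 (0.010). For Cxcl3 (-1.48 ± 0.67, limma adjusted p = 0.18) and Cxcl10 (-2.26 ± 0.82, 0.094) the WT response was the larger, and both passed when the replicate number was a block within genotype (0.0030 and 0.017). For Cxcl2 the interaction was -0.43 (95% interval -1.33 to 0.46) and for Cxcl16 0.00 (-0.77 to 0.76). At 1 h 0 of the 7 members and 0% of all genes were called by limma, with 592 genes at an unadjusted p under 0.05; the member estimates ran from -1.41 for Cxcl10 to 1.43 for Cxcl1. The 6 h call of Cxcl1 reached 0.053 without KO 6 h array 3, 0.052 without WT array 1 of the group without LPS and 0.052 without WT 6 h array 1 (range over 29 settings 0.0026 to 0.072). That of Cxcl9 lay between 0.059 and 0.065 without KO array 1 or 2 or WT array 2 of the groups without LPS or KO 6 h array 2 (range 0.0055 to 0.065), and Cxcl10 passed without KO array 1 of the group without LPS (0.0074; range 0.0074 to 0.21).

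The class levels were also drawn on single arrays by averaging each class after subtracting each gene's mean over the WT arrays without LPS, so that KO values hold both the KO level without LPS and the LPS response. KO arrays without LPS lay at 0.47, 1.77 and 1.20 for the neutrophil attractants and at 1.00, 1.97 and 3.32 for the CXCR3 ligands, with the CXCR3 ligands ahead on all 3. The neutrophil attractants stood ahead of the CXCR3 ligands by 1.92, 2.76 and 2.66 log2 units on the WT arrays at 1 h and by 2.06, 1.59 and 0.98 at 6 h. On KO arrays they stood ahead by 2.71, 2.29 and 1.25 at 1 h, and at 6 h the differences were -1.50, -1.12 and -0.34. At 6 h in KO cells the CXCR3 ligands were thus ahead (mean difference -0.98), as they were in KO cells without LPS (-0.95). Without LPS the differences on the KO arrays were -0.53, -0.21 and -2.12 (SD 1.03), the largest on array 3. Of the CXCR3 ligands, Cxcl10 alone was called between genotypes without LPS, while all 3 were called at 6 h.

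Measured from each genotype's own mean without LPS, the neutrophil attractants gained 4.33 ± 0.38 (SD, n = 3) log2 units by 6 h in WT cells and 4.33 ± 0.26 in KO cells. The CXCR3 ligands gained 2.78 ± 0.87 and 4.36 ± 0.37. Each SD covers the 6 h arrays only and leaves out the spread of the arrays without LPS. That spread was wide for the CXCR3 ligands in KO cells, at 1.00, 1.97 and 3.32 from the WT mean without LPS. At 1 h the gains were 3.46 and 3.82 for the neutrophil attractants and 1.02 and 0.78 for the CXCR3 ligands. The equal 6 h means of the neutrophil attractants join a larger KO response of Cxcl1 with smaller KO estimates for Cxcl2 and Cxcl3. The higher KO mean of the CXCR3 ligands joins larger KO responses of Cxcl9 and Cxcl11 with a smaller KO estimate for Cxcl10. These class values are descriptions with no test.

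**Figure D4:**
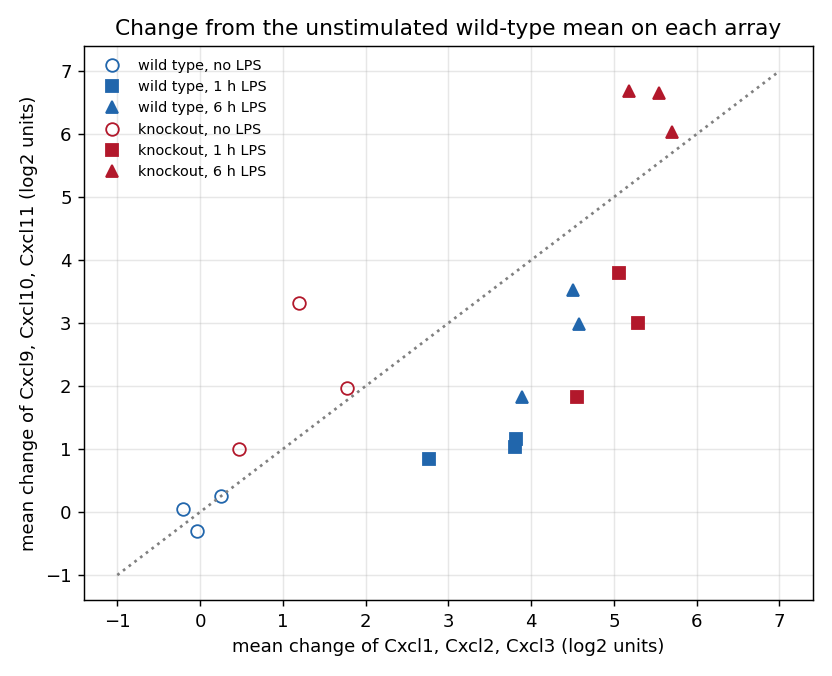
Mean change of Cxcl1, Cxcl2 and Cxcl3 (x axis) and of Cxcl9, Cxcl10 and Cxcl11 (y axis) on each of the 18 arrays, in log2 units from each gene's mean over the WT arrays without LPS; colour is genotype, shape is time and the dotted line is equal change. All arrays at 1 h and the WT arrays at 6 h lie below the line, and the KO arrays lie above it both without LPS and at 6 h.

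The KO level without any LPS was also set against the WT level after 6 h of LPS. Cxcl2 (-3.45 ± 0.30, limma adjusted p = 2.4e-06), Cxcl3 (-4.26 ± 0.47, 2.0e-05), Cxcl1 (-1.83 ± 0.34, 0.0020) and Cxcl16 (-1.18 ± 0.26, 0.0066) were lower in unstimulated KO cells, 4 of 7 members against 3.95% of all genes. The CXCR3 ligands did not pass: Cxcl10 differed by -1.17 (95% interval -2.41 to 0.06), Cxcl9 by -1.45 (-2.71 to -0.20, limma adjusted p = 0.17) and Cxcl11 by 0.57 (-0.75 to 1.89). Leaving out WT 6 h array 1 gave Cxcl9 an adjusted p of 0.0087 (range 0.0087 to 0.60), and leaving out KO array 3 without LPS gave Cxcl10 0.04960 (range 0.046 to 0.82). This comparison shares its arrays with the genotype and LPS comparisons above.

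Near-threshold LPS responses depended on single arrays as well, and some on the fit or scaling with all arrays kept. For Cxcl10 in WT cells at 1 h the limma adjusted p was 0.13 with trended robust variance and 0.052 with quantile scaling. For Cxcl9 in WT cells at 6 h it was 0.12 with only the compared groups, 0.095 with trended robust variance and 0.052 with centring. For Cxcl3 in WT cells at 1 h it was 0.091 with only the compared groups. The WT 1 h call of Cxcl10 (adjusted p 0.0025 to 0.23 over 29 settings) was lost on leaving out any 1 of 12 arrays: all 3 WT arrays without LPS (0.069, 0.10 and 0.21), all 3 at 1 h (0.093, 0.19 and 0.23), WT 6 h array 2 (0.061), KO array 2 without LPS (0.057), KO 1 h array 2 (0.056) and the KO 6 h arrays (0.058, 0.060 and 0.060). The WT 6 h call of Cxcl9 (0.0019 to 0.25) was lost without WT array 1, 2 or 3 of the group without LPS (0.11, 0.083, 0.12) or of the 1 h group (0.059, 0.061, 0.060), WT 6 h array 2 or 3 (0.16, 0.25), KO array 1 or 2 without LPS (0.054, 0.059), KO 1 h array 2 (0.059) or KO 6 h array 1 (0.053). For the WT 1 h rise of Cxcl3 the adjusted p was 0.051 without WT array 1 of the group without LPS and 0.079 and 0.082 without WT 1 h array 2 or 3 (range 2.8e-06 to 0.091). From 1 h to 6 h in WT cells, Cxcl10 gave 0.052 without WT 1 h array 1 and 0.059 and 0.069 without WT 6 h array 2 or 3 (6.1e-04 to 0.069), Cxcl16 gave 0.060 without WT 1 h array 2 and 0.055 without WT 6 h array 3 (8.5e-05 to 0.060), and Cxcl9, not called with all arrays, gave 0.0058 without WT 6 h array 1 (0.0058 to 0.48). From 1 h to 6 h in KO cells, Cxcl3 gave 0.14 and 0.056 without KO 1 h array 1 or 3 and 0.084 and 0.098 without KO 6 h array 2 or 3 (1.1e-04 to 0.14), and Cxcl10 gave 0.15 and 0.057 without KO 1 h array 1 or 2 and 0.056, 0.064 and 0.083 without KO 6 h array 1, 2 or 3 (0.0048 to 0.15).

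Other genes of the pathway were taken from lists drawn up by function. Of all genes, 1.8% were higher in KO cells and 0.642% lower without LPS, 1.5% and 0.687% at 1 h, and 10.6% and 18.8% at 6 h. Of 8 other CXC chemokines, 0 passed between genotypes without LPS or at 1 h, and 2 were higher in KO cells at 6 h: Cxcl14, a constitutive chemokine of epithelia (1.82 ± 0.61, limma adjusted p = 0.035), and Cxcl15, at very low signal (0.46 ± 0.11, 0.0047). None of the 8 was called after LPS in WT cells at 1 h or 6 h. Cxcl14 read 6.77, 6.39 and 6.47 on WT arrays without LPS and 7.28, 8.58 and 9.79 on KO arrays. Its difference was no smaller without LPS (2.01 ± 0.61, limma adjusted p = 0.11) and at 1 h (2.06 ± 0.61, 0.11) than at 6 h. The list's median difference at 6 h was 0.21, against 0.04 for all genes and 2.17 for the 7 members.

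Of 8 receptors and decoys, Cxcr4, the receptor of Cxcl12, alone passed between genotypes, lower in KO cells at 6 h by 0.99 on the log2 scale (-0.99 ± 0.26, limma adjusted p = 0.0088). At that time 18.8% of all genes were lower, and the list's median was -0.08. Cxcr3, the receptor of Cxcl9, Cxcl10 and Cxcl11, had group means of 4.80 to 5.36, and Cxcr6, the receptor of Cxcl16, 4.39 to 4.66. Neither was called in any comparison, and nor was Cxcr2, the receptor of the neutrophil attractants, whose WT mean was 5.32 ± 0.27 without LPS and 4.04 ± 0.52 at 6 h.

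Of 15 measured genes that feed interferon signals to the CXCR3 ligands, 4 were higher in KO cells without LPS, 4 at 1 h and 7 at 6 h, with 1 lower at 6 h. The shares of all genes higher at these times were 1.8%, 1.5% and 10.6%, with 18.8% lower at 6 h. Ifnb1, which encodes interferon beta, read 3.80, 3.80 and 3.36 on WT arrays without LPS and 4.35, 5.48 and 6.56 on KO arrays. At 6 h it read 4.26, 4.56 and 4.63 in WT cells and 12.04, 11.98 and 11.48 in KO cells, with no overlap at either time. KO exceeded WT by 1.81 ± 0.40 without LPS (limma adjusted p = 0.021), 4.33 at 1 h (8.1e-06) and 7.35 at 6 h (1.1e-08). Irf7, a transcription factor that amplifies interferon production, was higher in KO cells by 5.09 ± 0.39 without LPS (limma adjusted p = 1.5e-06), and Stat2 and Irf9, partners in the interferon-stimulated factor ISGF3, by 1.96 (0.0030) and 1.38 (3.6e-05). Ifng, encoding interferon gamma, had group means of 3.95 to 4.37, and Ifngr1, a chain of its receptor, was lower in KO cells at 6 h by 0.51 on the log2 scale (-0.51 ± 0.15, 0.019). The list's medians were 0.10, 0.16 and 0.41 without LPS, at 1 h and at 6 h. WT cells raised 5 of the 15 genes at 6 h, against 4.23% of all genes, and Ifnb1 was not among them.

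Of 10 measured genes of NF-kB input and feedback, 0 differed between genotypes without LPS. In KO cells 1 was higher at 1 h (1.5% of all genes) and 6 were at 6 h (10.6%). The list medians were 0.03, 0.26 and 0.44. LPS raised 5 at 1 h and 9 at 6 h in WT cells, where 0.256% and 4.23% of all genes rose. In KO cells it raised 6 and 9, against 0.537% and 12% of all genes. Nfkbiz, an inducible nuclear partner of NF-kB, was the gene higher at 1 h (1.10 ± 0.23, limma adjusted p = 0.014). At 1 h it read 8.55, 9.18 and 9.41 in WT cells and 9.76, 10.35 and 10.35 in KO cells, without overlap. At 6 h the difference was 1.85 ± 0.23 (1.7e-05). Nfkbia and Tnfaip3, feedback inhibitors of NF-kB, were higher in KO cells at 6 h by 0.51 (0.036) and 0.82 (0.0070).

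Among 9 genes that control the stability of chemokine transcripts, 1 was lower in KO cells without LPS and 0 passed at 1 h. At 6 h 2 were higher, Zfp36 (0.49 ± 0.16, limma adjusted p = 0.034) and Zc3h12a (0.34 ± 0.11, 0.023), both of which promote decay of such transcripts, and 1 was lower, Il17ra (-0.57 ± 0.13, 0.0040), a receptor chain whose signal stabilises them. Of 7 proteases that shed Cxcl16 or trim CXC chemokines, 2 were higher in KO cells without LPS, 0 passed at 1 h, and at 6 h 3 were higher and 1 lower. The counts of both lists stand beside 1.8% of all genes higher and 0.642% lower without LPS, and 10.6% and 18.8% at 6 h. Dpp4, which trims the CXCR3 ligands, was higher at 6 h by 1.47 ± 0.42 (limma adjusted p = 0.015), and Adam17, a sheddase, was lower (-0.23 ± 0.07, 0.028). The medians at 6 h were -0.02 for both lists, against 0.04 for all genes.

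Macrophage markers moved in part with genotype. Of the 11 measured, 3 were higher in KO cells without LPS, where 1.8% of all genes were: Adgre1 (0.71 ± 0.14, limma adjusted p = 0.012), Fcgr1, itself induced by interferon (3.09 ± 0.72, 0.031), and Cd14 (1.28 ± 0.25, 0.010). At 1 h 2 were higher (1.5% of all genes) and 1 lower (0.687%), Marco (-2.64 ± 0.60, limma adjusted p = 0.026). At 6 h 3 were higher (10.6% of all genes) and 2 lower (18.8%), Marco (-2.76 ± 0.60, limma adjusted p = 0.0023) and Csf1r (-0.60 ± 0.22, 0.049), with a list median of 0.46. Without LPS the difference of Marco was -2.14 ± 0.60 (limma adjusted p = 0.080). The 12 conventional dendritic cell genes had array means of 8.03 to 8.51 in WT and 7.91 to 8.21 in KO cells, and 4 of them were lower in KO cells at 6 h, where 18.8% of all genes were. Of 4 plasmacytoid dendritic cell genes, Bst2, also known to be induced by interferon, was higher in KO cells by 2.23 ± 0.20 without LPS (limma adjusted p = 1.1e-05), 2.22 at 1 h and 1.94 at 6 h, and Tcf4 by 2.43 ± 0.17 at 6 h (8.3e-08). The list's array means were 6.22 to 6.59 in WT and 6.69 to 7.79 in KO cells and did not overlap, while Siglech, which defines those cells, had group means of 4.47 to 4.62 and Siglech and Ccr9 were not called between genotypes. Of 14 neutrophil genes 3 were higher and 1 lower at 6 h, where 29.4% of all genes were called, and of 7 T and NK cell genes 0 passed between genotypes. The part of cell composition in the chemokine differences was not tested.

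For each member the genes with the most similar signal were sought among 2417 candidates by Pearson's r over the 18 arrays; since the arrays share 6 groups, the values are descriptions. Cxcl2 went most closely with Tnf and Il1a (r = 0.99 each) and Il1b (0.98), all early inflammatory cytokines, and Cxcl1 with Nfkbiz (0.97) and Junb (0.96). Cxcl3 was closest to Gpr84 (1.00) and Birc3 (0.96). Cxcl11 was closest to Pnp, Tnfsf10 and Sp140 (0.99 each), Cxcl10 to Acod1 (0.97) and Serpinb2 (0.96), and Cxcl9 to Marchf5 (0.97) and Apobec3 (0.96). Cxcl16 went with Ptprj (0.95), the Mir155 probe set and Sod2 (0.94 each). Between members, r was 0.90 for Cxcl1 and Cxcl2, 0.89 for Cxcl2 and Cxcl3 and 0.90 for Cxcl9 and Cxcl11, but 0.88 for Cxcl3 and Cxcl10, which stand in different classes, and 0.41 for Cxcl2 and Cxcl11. Cxcl10 was no closer to its own class, with r of 0.75 for Cxcl9 and 0.76 for Cxcl11, than to Cxcl1 (0.78) and Cxcl2 (0.75).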

How the data were processed

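Affymetrix Mouse Gene ST 1.0 arrays were hybridised with 200 ng total RNA per sample, per the labels' protocols. The deposited values are log2 RMA signals, RMA being named in the submitters' processing notes; the log base was read from the values. Precision is limited by 3 arrays per group. Of 35556 probe sets, 21789 had 1 gene symbol, 1621 several and 12146 none in the platform annotation; the highest-mean probe set stood for each of 999 genes with several, leaving 19938 genes. One limma fit (version 3.58.1, R 4.3.3) of 6 group means with moderated variance gave 12 comparisons, adjusted by Benjamini-Hochberg over all genes and called below 0.05. That fit held no replicate block, which was run only as an alternative. Tested on simulated data for KO minus WT at 6 h, it recovered 88% of genes shifted by 1 log2 unit and 99% of those shifted by 2. The simulated arrays varied independently, with 100 genes shifted per size, so these rates may not hold for arrays that deviate together. Same-numbered arrays deviated together within a genotype (all 18 pairs, r 0.15 to 0.80) and less regularly across genotypes (r -0.11 to 0.30, 13 of 27 pairs above 0.1, against 1 of 54 differently numbered pairs); pairing was taken to hold where every pair exceeded 0.1, that is within a genotype. Members and gene lists were chosen with earlier results of these data known. The named genes are the 7 members, the 3 genes most correlated with each, and listed pathway and cell-type genes. Alternatives were fits of the compared groups only, replicate blocks, centring, quantile scaling, a minimum mean of 5, array weights, trended robust variance and leaving out each array; 2 were added after seeing the data. The targeted gene's own signal is not reported here.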

Additional observations from a re-analysis of the deposited data

Results flagged for a closer look

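For 3 members the response to 6 h of LPS differed between KO and WT cells by the limma interaction test. The KO response minus the WT response was 1.91 log2 units for Cxcl1, 3.11 for Cxcl9 and 3.88 for Cxcl11. For all 3 the KO response was the larger by group means. Taken by array number, the 6 h gains of Cxcl9 were 0.51, 1.92 and 3.61 in WT cells and 5.84, 6.06 and 3.46 in KO cells. These ranges overlapped, while those of Cxcl1 and Cxcl11 did not. Without the KO arrays numbered 3 the interaction values of Cxcl1, Cxcl9 and Cxcl11 were 1.63, 3.94 and 4.84, with limma adjusted p of 0.072, 0.0086 and 2.5e-05. With a replicate block within genotype, Cxcl3 and Cxcl10 passed as well (limma adjusted p = 0.0030 and 0.017), and for both the WT response was the larger.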

How the results depend on the processing

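Of 84 member comparisons 43 were called, and 30 of these kept their call in every setting run; none changed direction. Genes called moved as follows, the cause not tested. Fitting only the compared groups gave 153 genes for KO minus WT without LPS, 257 at 1 h, 31 for the WT 1 h response, 46 for the KO 1 h response, 3832 for KO 6 h minus 1 h and 1251 for the 6 h interaction, against 487, 436, 60, 133, 5848 and 2031. It lost Cxcl3 for KO minus WT at 1 h (limma adjusted p = 0.12), the WT 1 h response (0.091) and the KO 1 h response (0.077). It also lost Cxcl9 for the WT 6 h response (0.12) and the 6 h interaction (0.059). Cxcl2 passed for KO minus WT at 6 h (0.011), and Cxcl11 for the WT 6 h response (0.031) and WT 6 h minus 1 h (0.0097). The replicate block within genotype gave 133 and 3002 genes for the WT responses at 1 h and 6 h, 2504 for WT 6 h minus 1 h, 309 for the KO 1 h response and 4347 for the 6 h interaction (5 members), and changed no other member call. A block shared across genotypes gave 924 (3 members: Cxcl10, Cxcl2 at adjusted p 0.0046 and Cxcl3 at 1.6e-04) and 828 genes for KO minus WT without LPS and at 1 h, and 5 members for the 6 h interaction; Cxcl2 at 6 h passed too (0.019). Array weights gave 3 members for KO minus WT without LPS, 929 genes at 1 h, 2508 for WT 6 h minus 1 h, 281 for the KO 1 h response, 3268 for the 6 h interaction and 3092 for unstimulated KO minus WT at 6 h. A minimum mean of 5 gave 2 members for KO minus WT without LPS, and trended robust variance 3 for KO 6 h minus 1 h. Trended robust variance also lost Cxcl3 for KO minus WT at 1 h (limma adjusted p = 0.091) and Cxcl10 for the WT 1 h response (0.13). With it Cxcl9 was lost for the WT 6 h response (0.095) and the 6 h interaction (0.054).

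Chosen after seeing the data, a random replicate block (correlation 0.27) gave 3 members for KO minus WT without LPS (Cxcl10, Cxcl2 and Cxcl3), Cxcl9 at 0.04979 for WT 6 h minus 1 h, 120, 2524 and 2017 genes for the WT responses at 1 h and 6 h and WT 6 h minus 1 h, 284 for the KO 1 h response and 3835 for the 6 h interaction (5 members). Leaving out the 3 KO arrays numbered 3 gave 79 genes for the KO 1 h response and 1 for the 1 h interaction, and lost the calls of Cxcl3 for KO minus WT at 1 h (0.13), the KO 1 h response (0.053) and KO 6 h minus 1 h (0.13).

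Leaving out 1 array gave 274 to 536, 243 to 521 and 4118 to 6461 genes for KO minus WT without LPS, at 1 h and at 6 h (members 1 to 3, 1 to 4 and 3 to 5). It gave 28 to 68, 901 to 1752 and 592 to 1309 genes for the WT responses at 1 h, at 6 h and from 1 h to 6 h (members 2 to 4, 5 to 6 and 1 to 4). For the KO responses it gave 78 to 146, 4702 to 6862 and 3915 to 6533 (members 3, 7 and 3 to 5). The interactions gave 0 to 1 and 1284 to 2476 genes (members 0 and 2 to 3), and unstimulated KO minus WT at 6 h 1112 to 1969 (members 4 to 5). Quantile scaling moved the share of calls that were higher from 73.7% to 61.7% for KO minus WT without LPS and from 29.5% to 48.9% for the 6 h interaction.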
